A study of Saccharomyces cerevisiae with 12 samples.

Results

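Where a gene on the Watson strand (W) is followed by a gene on the Crick strand (C), transcription runs towards the same stretch of DNA from both sides, and the gap between the coding regions holds the 3′ ends of both genes. The RNA polymerase II (Pol II) peaks of budding yeast were examined in these convergent gaps. They were taken as stretches of at least 100 bp between neighbouring nuclear protein-coding genes with no other annotated gene inside, the W or C letter being read from the systematic name. There were 1269 convergent gaps among 5249 gaps of all orientations, the others being 2587 tandem and 1393 divergent gaps. None of the measured peak values entered this choice. A further 177 convergent gaps were shorter than 100 bp. The longest of those left out, BOL1/GCV3 and GRX2/YDR514C with 99 bp each, were 100% and 0% covered by wild-type peaks and 100% covered in dbp2Δ. The shortest of those kept, SRB6/TRS20 and ADE1/KIN3 with 100 bp each, were 100% covered in both lists. A gap is named here by its W gene and its C gene.

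At the 3′ end of a yeast gene the transcript is cut and polyadenylated, and the polymerase travels on past the cleavage site until it is released from the DNA. Between convergent genes, a polymerase that travels on enters the neighbour from its 3′ side and is then antisense to it. Dbp2 is a DEAD-box RNA helicase that acts on RNA as it is made, and its loss is known in yeast for defects in transcription termination and RNA quality control. Pol II on the DNA was mapped by chromatin immunoprecipitation of Rpb3, a Pol II subunit that carried a 3XFLAG tag in both strains, followed by sequencing.

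The wild type was MATa with the auxotrophic alleles his3Δ1, leu2Δ0, met15Δ0 and ura3Δ0. The mutant had the same alleles and carried the KanMx6 marker in place of DBP2 (dbp2::KanMx6). Both strains were grown in rich medium with 2% glucose at 30 °C. Each strain contributed 3 immunoprecipitates and 3 inputs, which the series' design text calls biological replicates. The authors called 1 list of peaks per strain on the pooled libraries. There is therefore 1 value per strain, with no replicate error and no test between strains. The intervals below are 95% intervals over gaps, which describe the number of gaps and not the spread between cultures.

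After removal of duplicates the pooled immunoprecipitates held 3648848 wild-type and 4030024 dbp2Δ fragments. The pooled inputs held 5106431 and 4748970. The lists held 1642 and 1628 peaks over 2.24 and 2.41 Mb, and the recorded fragment sizes were 260 and 290 bp. The longer dbp2Δ fragments, the larger covered length and the unequal depth bear on every comparison of coverage. Main counts are therefore also given for a dbp2Δ list shortened to the covered length of the wild-type list by dropping its peaks of lowest fold enrichment, and some for dbp2Δ peaks with trimmed edges. No setting evened out fragment size and covered length at once, and none evened out depth.

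Convergent gaps were covered by Pol II peaks more often in dbp2Δ than in the wild type. At least 50% of the gap was covered in 525 of the 1269 convergent gaps (41.4%, Wilson interval 38.7 to 44.1%) in the wild type and in 658 (51.9%, 49.1 to 54.6%) in dbp2Δ. Over gaps of all orientations the shares were 26.2% and 26.9%. Counting only peaks enriched 2-fold or more, 336 and 411 convergent gaps were covered, against 500 and 477 tandem and 121 and 71 divergent gaps. At equal covered length the convergent counts were 525 and 574, the tandem counts 691 and 618 and the divergent counts 159 and 82, so the convergent surplus was smaller than with the full lists. The tandem gaps had 691 (26.7%) and 668 (25.8%), and the divergent gaps 159 (11.4%) and 85 (6.10%). The lists thus held more covered gaps between convergent genes, fewer between divergent genes and about as many between tandem genes in dbp2Δ. In base pairs, peaks covered 35.8% of all convergent gap sequence in the wild type and 43.9% in dbp2Δ, 23.3% and 22.7% of tandem and 14.0% and 9.35% of divergent gap sequence.

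**Figure D1:**
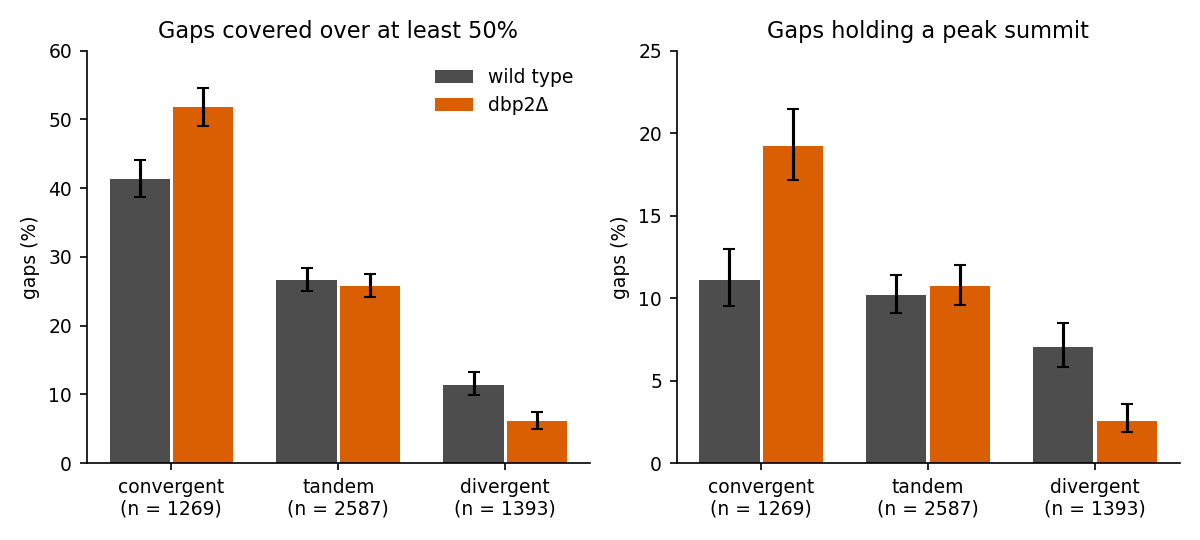
Percent of gaps covered by peaks over at least 50% of their length (left) and percent holding a peak summit (right), for convergent, tandem and divergent gaps in the wild type (grey) and dbp2Δ (orange). Error bars are Wilson 95% intervals over gaps. Convergent gaps stand at 41.4% and 51.9% on the left and at 11.1% and 19.2% on the right, whereas both values are lower in dbp2Δ for divergent gaps.

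A convergent gap was usually covered wholly or not at all. In the wild type 709 gaps were at 0%, 35 lay above 0% and under 50%, 99 lay from 50% to under 100%, and 426 were at 100%. In dbp2Δ the numbers were 582, 29, 77 and 581. In the wild type all 426 fully covered gaps, and in dbp2Δ 580 of the 581, lay under a single peak that ran from the W gene into the C gene. The covered gaps were touched by 514 distinct peaks in the wild type and 651 in dbp2Δ, and no peak touched more than 2 covered gaps.

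The covered sets were nested to a large extent. In both lists 502 gaps were covered (39.6%, against 21.3% of all gaps), or 95.6% of the 525 from the wild-type list and 76.3% of the 658 from the dbp2Δ list. In dbp2Δ only, 156 convergent gaps were covered (12.3%, against 5.54% of all gaps), and in the wild type only, 23 (1.81%, against 4.86%). Tandem gaps had 125 in the dbp2Δ list alone and 148 in the wild-type list alone, and divergent gaps 10 and 84. After 15 bp, which is 50% of the difference between the fragment sizes, were taken off each edge of the dbp2Δ peaks, 150 and 23 convergent gaps remained in these sets. Tandem gaps then had 121 and 160, and divergent gaps 10 and 90. At equal covered length, the convergent numbers were 96 and 47, the tandem numbers 103 and 176 and the divergent numbers 9 and 86. Dropping dbp2Δ peaks cannot raise the first number of a pair or lower the second. More covered gaps in dbp2Δ than in the wild type were found on 15 of the 16 chromosomes, and chromosome I had 7 in each. The largest surplus was on chromosome XIII, with 41 of 104 gaps covered in the wild type and 59 in dbp2Δ, followed by chromosome IV with 68 and 85 of 173.

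Around the centre of the gap, the strains differed over a short distance. At the centre 41.4% of convergent gaps lay under a wild-type and 52.0% under a dbp2Δ peak. At 250 bp from the centre on the side of the W gene the shares were 33.5% and 44.1%, and on the side of the C gene 30.8% and 41.5%. At 500 bp they were 20.8% and 23.1% on the W side and 19.4% and 22.9% on the C side. At 1000 bp they were 17.8% and 18.0% on the W side and 19.2% and 18.8% on the C side. The difference was therefore largest in and next to the gap and of similar size on either side. In tandem gaps the shares at the centre were 26.6% and 25.8%, and in divergent gaps 10.9% and 5.81%.

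**Figure D2:**
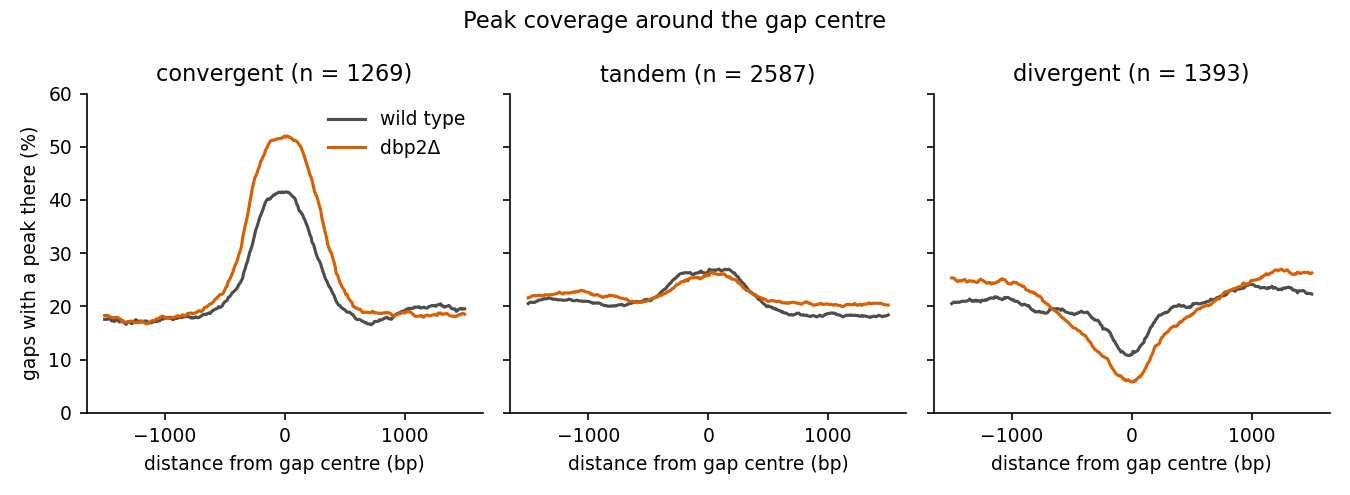
Percent of gaps with a peak at each distance from the gap centre, from -1500 to 1500 bp, in the wild type (grey) and dbp2Δ (orange). Negative distances lie on the side of the gene with the lower coordinate, which is the W gene in convergent gaps. The convergent curves peak at 41.4% and 52.0% at the centre and come together at 1000 bp, while the divergent curves dip to 10.9% and 5.81%.

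Gap lengths differed between the orientations, with a median of 245 bp for convergent, 389 bp for tandem and 491 bp for divergent gaps, so the comparison was repeated within bins of length. Among gaps under 200 bp, 35.3% of 464 convergent gaps were covered in the wild type and 48.9% in dbp2Δ, against 23.7% and 20.9% of 177 tandem gaps. Among gaps of 200 bp to under 300 bp the convergent shares were 49.3% and 60.9% of 361, and the tandem shares 26.9% and 26.1% of 602. Among gaps of 300 bp to under 500 bp they were 49.3% and 57.7% of 284 convergent and 30.9% and 29.9% of 974 tandem gaps. Convergent gaps were covered more often than tandem gaps in both lists in each of these bins, and the dbp2Δ share exceeded the wild-type share only in the convergent ones. The 160 convergent gaps of 500 bp or more had 26.9% and 29.4%, the smallest difference of the 4 bins.

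**Figure D3:**
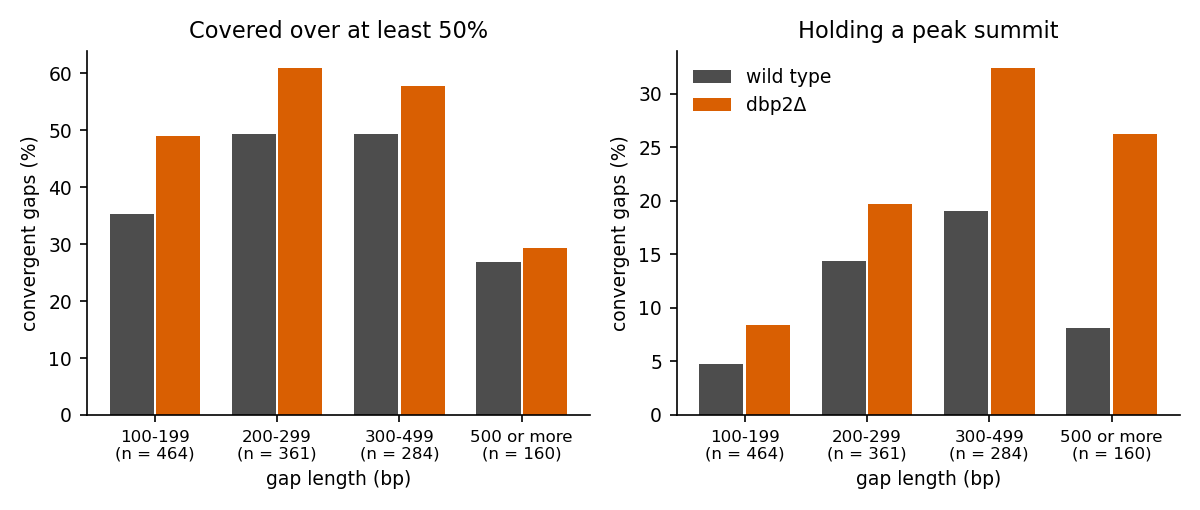
Percent of convergent gaps covered over at least 50% (left) and percent holding a peak summit (right), by gap length in bp, in the wild type (grey) and dbp2Δ (orange), with the number of gaps per bin. The covered share is higher in dbp2Δ in all 4 bins, from 48.9% against 35.3% in the shortest to 29.4% against 26.9% in the longest, and the summit share in the longest bin is 26.3% against 8.13%.

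How a gap was covered followed the peaks over its flanking genes. A flanking gene counted as having a peak if 50% or more of it lay under peaks. Both flanks had a peak for 88 convergent gaps in the wild type and 108 in dbp2Δ, and every one of these gaps was covered over 100% of its length. Exactly 1 flank had a peak for 349 gaps in the wild type, of which 308 (88.3%) were covered, and for 356 in dbp2Δ, of which 330 (92.7%) were covered. Neither flank had a peak for 832 and 805 gaps, of which 129 (15.5%, Wilson interval 13.2 to 18.1%) and 220 (27.3%, 24.4 to 30.5%) were covered. At equal covered length 129 and 151 gaps with neither flank were covered, a much smaller difference. Counting only peaks enriched 2-fold or more, 21 and 55 such convergent gaps were covered. In tandem gaps with neither flank the shares were 7.30% and 6.81%, and in divergent gaps 2.04% and 0.966%.

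The comparison was repeated in gaps whose flanks had the same state in both lists. Among 762 gaps with neither flank in either list, wild-type peaks covered 98 (12.9%) and dbp2Δ peaks 194 (25.5%). Of these, 108 were covered in the dbp2Δ list alone and 12 in the wild-type list alone. Among 271 gaps with the same single flank in both lists, 243 and 253 were covered, 15 in dbp2Δ alone and 5 in the wild type alone. The 68 gaps with both flanks in both lists were all covered in both. Since all 68 tied at 100%, the first 5 by name are given, AHP1/CCW12 (385 bp), between a peroxiredoxin gene and a cell wall protein gene, ARF3/RKI1 (205 bp), ATP17/LSM6 (432 bp), ATP19/BRX1 (203 bp) and CDC19/YAL037C-A (137 bp), beside the pyruvate kinase gene. The remaining 168 gaps, whose flanks changed state, had 116 covered in the wild type and 143 in dbp2Δ. For comparison, 1597 tandem gaps with neither flank in either list had 90 and 93 covered, and 867 divergent gaps 15 and 8.

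Of the 156 gaps covered in dbp2Δ only, 142 were at 0% in the wild type, 116 were at 100% in dbp2Δ, and 108 had neither flank with a peak in either list. In 57 of them the dbp2Δ summit lay inside the gap. The fold enrichment, which is the authors' value at the summit of a peak and ranks peaks within 1 list, had a median of 1.65 for the highest dbp2Δ peak touching these gaps, with a range of 1.29 to 5.47. It reached 2-fold at 27 of the 156. The median over the whole dbp2Δ list was 2.04, so these were mostly low peaks. The 23 gaps covered in the wild type only had a median of 1.87 in their list, whose overall median was 1.99, and 17 of them were at 0% in dbp2Δ.

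Long gaps at 0% in the wild type and 100% in dbp2Δ show the forms this took. FDO1/NDE1 (chromosome XIII, 554391 to 554792, 402 bp) lies beside the gene of a mitochondrial NADH dehydrogenase, and NDE1 itself was covered over 15.0% in the wild type and 100% in dbp2Δ, where the summit stood in the gap (2.47-fold). HOR7/MLO1 (chromosome XIII, 774932 to 775314, 383 bp) held a dbp2Δ summit of 1.46-fold, and HOR7 was covered over 0% and 90.6%. GFD1/COX7 (chromosome XIII, 778568 to 778944, 377 bp), beside the gene of a cytochrome c oxidase subunit, held one of 1.71-fold, and COX7 was covered over 0% and 51.9%. In these 3 gaps a flanking gene gained enough coverage to meet the rule together with the gap.

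PEX13/HCR1 (chromosome XII, 538433 to 538791, 359 bp) lies between genes of peroxisomal import and of a translation initiation factor. The dbp2Δ peak in this gap (2.43-fold) was separate from a peak at the far end of HCR1 that both lists held, and HCR1 was covered over 24.1% in the wild type and 61.7% in dbp2Δ. ORC5/LTO1 (chromosome XIV, 156540 to 156858, 319 bp), beside a gene of the origin recognition complex, held a dbp2Δ peak of 1.62-fold, with 20.6% of ORC5 and 24.7% of LTO1 covered. The wild-type coverage of ORC5, 17.6%, came from a separate peak at its other end. The dbp2Δ peak of ORC5/LTO1 sat over the gap and the 3′ parts of its genes, and neither gene met the rule.

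At MNR2/YKL063C (chromosome XI, 320674 to 321014, 341 bp), beside a magnesium transporter gene, YKL063C was covered over 59.7% and 79.2%, and the gap only in dbp2Δ (2.00-fold). At CCT3/MAD3 (chromosome X, 409163 to 409492, 330 bp) the chaperonin subunit gene CCT3 was covered over 46.9% and 79.3%, and the dbp2Δ summit of 1.78-fold stood in the gap.

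The opposite case was rarer. CLB1/CLB6 (chromosome VII, 705052 to 705358, 307 bp), between genes of B-type cyclins, lay under a wild-type peak of 1.51-fold, and no dbp2Δ peak touched the gap or either gene. ASI1/ADE17 (chromosome XIII, 507208 to 507501, 294 bp) lay under a wild-type peak of 4.77-fold that covered 100% of the purine synthesis gene ADE17, of which 10.7% was covered in dbp2Δ. YHB1/MIC26 (chromosome VII, 961104 to 961359, 256 bp) lay under a peak of 2.62-fold with 100% of the flavohaemoglobin gene YHB1, and neither was covered in dbp2Δ. AIM10/SBH1 (chromosome V, 332307 to 332581, 275 bp) was at 100% and 0%, with the translocon subunit gene SBH1 covered over 100% and 51.8%. Of the 8 gaps named by this rule, 2 therefore lay beside a gene that was itself fully covered in the wild type and covered over 10.7% or less in dbp2Δ (ADE17 and YHB1).

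The other 4 were ORC1/TEM1 (184 bp, 1.79-fold in the wild type), MRX3/ROX3 (166 bp, 1.87-fold), PAC2/TMA20 (153 bp, 1.65-fold) and CGI121/AMD1 (134 bp, 1.56-fold). All 4 were at 100% in the wild type and 0% in dbp2Δ, and none of their flanking genes had a peak in either list.

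**Figure D4:**
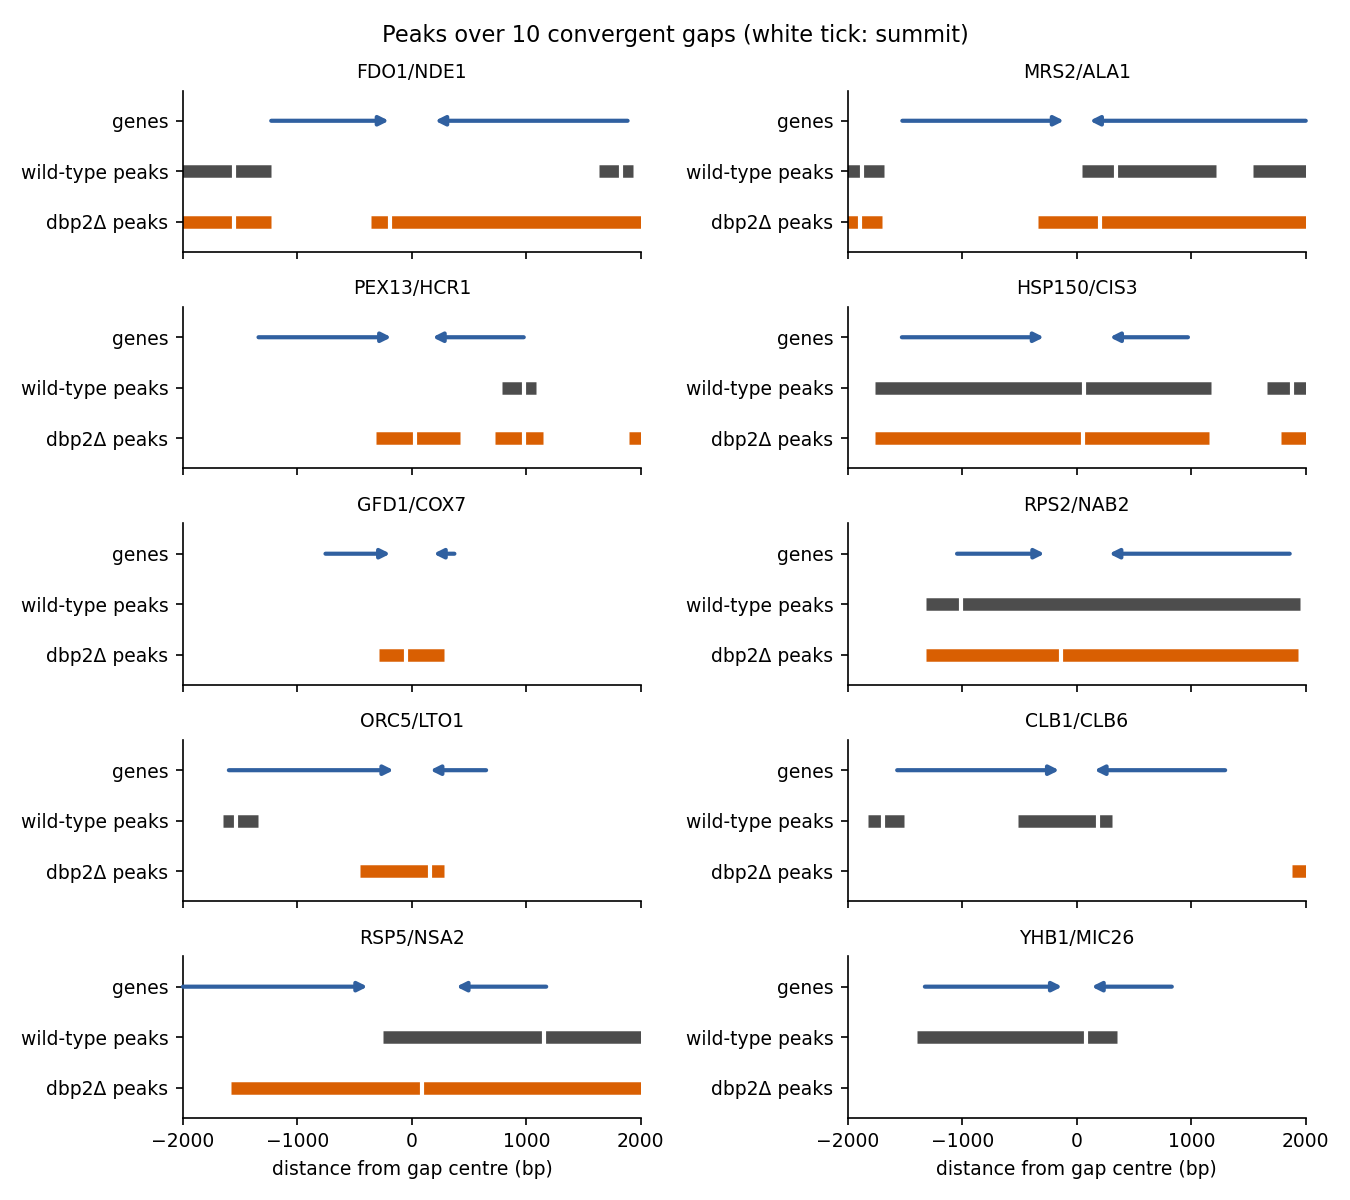
Wild-type (grey) and dbp2Δ (orange) peaks around 10 convergent gaps, by distance from the gap centre in bp. Blue arrows are the flanking genes in their direction of transcription, cut at the edge of the map, and white ticks are summits. In the first 4 maps of the left column the gap is covered in dbp2Δ only, in RSP5/NSA2 and MRS2/ALA1 the dbp2Δ peak runs farther through the gap, HSP150/CIS3 and RPS2/NAB2 are fully covered in both lists, and CLB1/CLB6 and YHB1/MIC26 are covered in the wild type only.

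Where a single flank had a peak in both lists, the peak ran farther past the 3′ end of that gene in dbp2Δ. The distance was measured from the end of the coding region, so it includes the 3′ UTR, to the end of the continuous peak, in 256 of the 271 gaps where the coding end lay inside a peak in both lists. The wild-type median was 412 bp (quartiles 307 and 494 bp) and the dbp2Δ median 492 bp (397 and 594 bp). The median difference within gaps, dbp2Δ minus wild type, was 84 bp (interval of the median over gaps 71 to 94 bp, quartiles 39.5 and 129 bp). The peak ran farther in dbp2Δ at 223 gaps and less far at 33. For 135 genes on W the median difference was 86 bp (70 to 96 bp) and for 121 genes on C 83 bp (68 to 97 bp). With the dbp2Δ edges shortened by 15 bp, it was 69 bp.

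The peaks of the same kind past other gene ends gave other values. Past the 3′ end of 228 genes in tandem gaps the median difference was 55 bp (43 to 62 bp), with 172 longer and 52 shorter. Past the 5′ end of 216 genes in divergent gaps it was -30 bp (-36 to -22 bp), with 40 longer and 175 shorter. Within the same lists the dbp2Δ peaks thus ended farther from the gene at 3′ ends and nearer to it at 5′ ends of divergent genes.

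**Figure D5:**
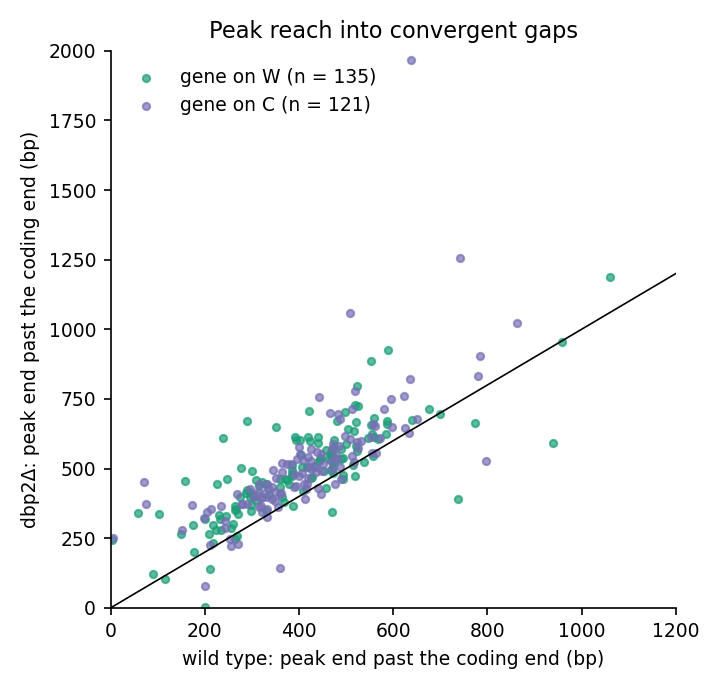
Distance from the coding end to the end of the peak in the wild type (x axis, bp) and dbp2Δ (y axis, bp) for 256 genes flanking convergent gaps, for genes on W (green) and on C (purple). The line marks equal distances, and 223 points lie above it. The highest point, at 638 and 1965 bp, is NSA2.

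In most of these gaps the peak did not end inside the gap. It passed the coding end of the opposite gene at 197 of the 256 gaps in the wild type and 227 in dbp2Δ. Over the 256 gaps, a mean of 11.9% and 18.6% of the opposite gene lay under peaks. Separate peaks over the opposite gene count in these means. The median stretch inside the opposite gene was 131 bp for wild-type and 223 bp for dbp2Δ peaks. This median is over all 256 gaps, with peaks that did not enter the opposite gene counted as 0 bp. Whether this signal comes from polymerase of the first gene or of the opposite gene cannot be told from peaks, which carry no strand.

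The largest gain was at RSP5/NSA2 (chromosome V, 412619 to 413393, 775 bp), between the genes of a ubiquitin ligase and of a ribosome assembly factor. The peak over NSA2 ended 638 bp past its coding end in the wild type and 1965 bp past it in dbp2Δ, where it covered 49.0% of RSP5, of which 0% was covered in the wild type. At MAK5/SUP45 (chromosome II, 530639 to 530868) the peak over SUP45, the translation release factor gene, reached 509 and 1057 bp. At AFT1/RPB9 (chromosome VII, 374085 to 374458) the peak over RPB9, a Pol II subunit gene, reached 742 and 1257 bp, and AFT1, the gene of the iron-responsive activator, was covered over 17.8% and 42.6%. At MRS2/ALA1 (chromosome XV, 946009 to 946232) the peak over the alanyl-tRNA synthetase gene reached 70 and 451 bp. At PRY2/YPT52 (chromosome XI, 464949 to 465366) the peak over PRY2 reached 289 and 670 bp.

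The largest losses were smaller. At YER138W-A/RTR1 (984 bp) the peak reached 738 and 389 bp, at RPS17A/NSE5 940 and 593 bp, and at AQR1/YDJ1, beside the Hsp40 gene YDJ1, 797 and 528 bp. At MMS4/FES1 it reached 360 and 144 bp, and at YJL077W-B/ICS3 200 and 4 bp. The summit of the peak past YER138W-A lay far upstream of that gene, at -4258 and -4279 bp from its coding end. For YDJ1 and YJL077W-B the summit also lay upstream of the gene in both lists. RPS17A/NSE5 and AQR1/YDJ1 were covered over 100% in both lists all the same.

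Summits, the highest points of the peaks, also lay in convergent gaps more often in dbp2Δ. A summit stood in 141 convergent gaps in the wild type (11.1%, against 9.58% of all gaps) and in 244 in dbp2Δ (19.2%, against 10.6%). The Wilson intervals were 9.50 to 13.0% and 17.2 to 21.5%. Tandem gaps had 264 and 278, and divergent gaps 98 and 36. At equal covered length, 141 and 207 convergent gaps held one. Both full lists had a summit in 87 convergent gaps (6.86%, against 4.52% over gaps of all orientations). The dbp2Δ list alone had one in 157 (12.4%, against 6.12%), and the wild-type list alone in 54 (4.26%, against 5.07%). No convergent gap held more than 1 summit in either list. In the 87 gaps the summits of the lists were a median of 33 bp apart (quartiles 12 and 87 bp), and 51 pairs were within 50 bp.

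Of the 157 gaps with a summit in dbp2Δ only, 94 were covered over at least 50% in the wild type as well, and 59 were untouched by a wild-type peak. The change of summit was thus mostly found under peaks that both lists held. The summits were spread over much of the gap. In the wild type they lay at a median of 45.8% of its length from the W gene (quartiles 26.6 and 64.6%). In dbp2Δ they lay at a median of 45.5% (25.6 and 69.4%). They were a median of 80 and 81 bp from the nearer coding end.

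The peaks with a summit in a convergent gap were of a different kind in the 2 lists. In the wild type they were 8.59% of all peaks, with a median length of 617 bp against 932 bp for the other peaks and a median fold enrichment of 1.83 against 2.03. In dbp2Δ they were 15.0% of all peaks, with a median length of 1040 bp against 985 bp and a median fold enrichment of 2.22 against 2.02. The share of them at 2-fold enrichment or more was 36.2% in the wild type, where it was 49.6% for all peaks, and 59.8% in dbp2Δ, where it was 51.8%. Within its own list a peak with a gap summit thus ranked below the other peaks in the wild type and above them in dbp2Δ. Those with neither flank covered were low and short in both lists, with medians of 1.67-fold and 466 bp for 73 peaks in the wild type and 1.72-fold and 506 bp for 103 in dbp2Δ, and none exceeded 2.41-fold and 2.75-fold.

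The 5 highest summits in convergent gaps of the wild-type list lay between genes that were both covered. HSP150/CIS3 (chromosome X, 121691 to 122264, 574 bp), between 2 genes of the PIR family of cell wall proteins, had the highest in the wild type (9.15-fold) and 12.4-fold in dbp2Δ. RPL13A/RPP1A (chromosome IV, 309389 to 309801), between 2 ribosomal protein genes, had 8.25-fold and 10.02-fold. GPP1/RPL34B (chromosome IX, 255868 to 256225), between the genes of a glycerol phosphatase and a ribosomal protein, had 7.70-fold and 11.6-fold. RPL26B/YGR035C (chromosome VII, 556673 to 557071) had 5.58-fold and 7.25-fold, and HEM1/RTN1 (chromosome IV, 929099 to 929469), between the genes of the first enzyme of haem synthesis and a reticulon, 4.86-fold and 5.004-fold. All 5 gaps had both flanks with a peak and a summit in the gap in both lists. Each list was scaled on its own, so no direction is read from one fold enrichment to the other.

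Among the 5 highest in dbp2Δ were 2 gaps whose wild-type summit stood elsewhere. RPS3/MRPL22 (chromosome XIV, 303403 to 303685, 283 bp) held the highest dbp2Δ summit of all convergent gaps (13.7-fold). Its wild-type peak, of 10.3-fold, also covered the whole gap and had its summit outside it. RPS2/NAB2 (chromosome VII, 278382 to 278945, 564 bp), between a ribosomal protein gene and the gene of a nuclear poly(A)-binding protein, held a dbp2Δ summit of 10.4-fold. The wild-type peak there, of 9.15-fold, had its summit outside the gap.

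The place of the summit along the gene was followed in the 256 gaps with the same single flank, taking the summit of the peak over the coding end. In the wild type it lay in the flanking gene at 160, upstream of that gene at 52, in the gap at 33 and beyond the gap at 11. In dbp2Δ it lay in the flanking gene at 113, upstream at 33, in the gap at 74 and beyond it at 36. It stood farther along the direction of transcription in dbp2Δ at 184 gaps and less far at 71, with 1 equal, and the median difference was 132 bp (interval over gaps 64 to 340 bp, quartiles -4.25 and 898 bp). At 43 gaps it lay in the gene in the wild type and in the gap in dbp2Δ, and at 10 the other way round. In 228 tandem gaps the median difference past the 3′ end was 215 bp (92 to 455 bp), with 169 farther and 56 less far, so a summit nearer the 3′ end was found in both orientations.

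Ribosomal protein genes flanked 63 convergent gaps. All 63 were covered in both lists, with the lowest coverage at 88.6% in the wild type and 93.5% in dbp2Δ, against 525 and 658 of the 1269 convergent gaps. The lists differed here in the place of the summit. It stood in the gap at 3 of the 63 in the wild type (4.76%) and at 22 in dbp2Δ (34.9%), 3 of them shared, with 19 in dbp2Δ alone and 0 in the wild type alone. Of all covered convergent gaps, 25.5% held a summit in the wild-type list and 35.6% in the dbp2Δ list. The 19 gaps were chosen for this change after their values were seen. They include RPS3/MRPL22, RPS2/NAB2, VMA1/RPL41A (11.3-fold and 9.75-fold), RPL33A/FRK1 (10.4-fold and 6.90-fold), LAS17/RPS30B (9.23-fold and 7.14-fold), SUB2/RPS16B (8.25-fold and 7.30-fold) and RPS23A/NUP57 (6.51-fold and 8.04-fold). Each pair of values is taken at summits in different places. At RPL33A/FRK1 the wild-type summit lay at -1641 bp from the RPL33A coding end, upstream of that gene. The dbp2Δ summit there lay at 191 bp, in the gap. Many ribosomal proteins are encoded by near-identical gene copies, and how reads of such copies were placed is not given in the sources used here.

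The ribosomal protein gaps with the highest peaks, KIN4/RPL33B (chromosome XV, 778249 to 778554, 19.2-fold and 15.7-fold), RPS14B/RPS22A (chromosome X, 74612 to 74909) with RPL39/SWE1 (chromosome X, 76475 to 76802) under the same peak (14.4-fold and 17.1-fold), and RPS31/UPS2 (chromosome XII, 499406 to 499577, 10.1-fold and 15.2-fold), were covered over 100% in both lists and held no summit. The fold enrichment belongs to the summit of the whole peak, wherever that lies. Relative to the coding end, the summit lay at -1603 and -1606 bp for RPL33B and at -2590 and -2591 bp for RPL39. These places are upstream of the gene in both lists. Past RPL33B the peak reached 478 and 548 bp, and past RPL39 586 and 660 bp. UPS2, opposite RPS31, was covered over 41.6% in the wild type and 91.6% in dbp2Δ.

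Genes of translation factors flanked 11 convergent gaps, of which 10 were covered in both lists, with a summit in 2 in the wild type and 6 in dbp2Δ. Over all convergent gaps, 39.6% were covered in both lists, and 11.1% and 19.2% held a summit. Among the covered convergent gaps of each list, 25.5% in the wild type and 35.6% in dbp2Δ held one. TEF1/GRS2 (chromosome XVI, 701971 to 702113), beside a gene of elongation factor 1A, lay under peaks of 15.3-fold and 16.5-fold that reached 489 and 570 bp past TEF1. At ECM33/RPG1 (chromosome II, 394743 to 395382) and at TIF5/PUF2 (chromosome XVI, 649922 to 650434), beside initiation factor genes, the dbp2Δ summit stood in the gap (6.51-fold and 4.23-fold) and the wild-type one did not. At TIF5/PUF2 this was a short step over the border of the gap. The wild-type summit lay at -40 bp and the dbp2Δ summit at 2 bp from the TIF5 coding end. Genes of glycolysis and fermentation flanked 11 gaps, of which 8 were covered in both lists, also above the 39.6% of all convergent gaps. Among them were HIP1/TDH3 (chromosome VII, 882232 to 882811, 13.9-fold and 9.68-fold), BLI1/FBA1 (11.3-fold and 7.09-fold), MHF1/ADH1 (11.3-fold and 7.17-fold) and CDC19/YAL037C-A (10.9-fold and 12.2-fold). A summit stood in 0 of the 11 in the wild type and in 1 in dbp2Δ, HIP1/TDH3. No gap of either group was covered in 1 list only.

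Genes of mRNA 3′ end processing and termination factors flanked 8 gaps, 3 covered in the wild type and 4 in dbp2Δ, which is close to the 41.4% and 51.9% of all convergent gaps. RPS2/NAB2, BUD4/FIP1 (chromosome X, 603079 to 603219, 1.84-fold and 2.25-fold) and HRP1/SMF1 (chromosome XV, 89449 to 89691, 1.51-fold and 1.97-fold) were covered in both. A summit stood in 1 of the 8 gaps in the wild type and in 2 in dbp2Δ, against 11.1% and 19.2% of all convergent gaps. At BUD4/FIP1 the wild-type summit stood in the gap and the dbp2Δ summit did not. Past HRP1, the gene of a cleavage factor subunit, the peak reached 247 and 463 bp. NSE3/RTT103 (chromosome IV, 1038107 to 1038279), beside the gene of a Pol II-binding termination factor, was at 0% and 100%, and the summit of its dbp2Δ peak, of 1.60-fold, lay in the gap.

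Glucose-repressed and galactose genes, mostly repressed in glucose medium, flanked 7 gaps, with 1 covered in the wild type and 2 in dbp2Δ, against 41.4% and 51.9% of all convergent gaps. RPL25/MDH2 (chromosome XV, 81191 to 81786) was covered over 100% and 93.5%, and its dbp2Δ summit of 8.96-fold stood in the gap. MDH2 was covered over 100% in the wild type and 0% in dbp2Δ. CYC1/UTR1 (chromosome X, 526665 to 526883), beside the cytochrome c gene, was at 0% and 74.9%, with CYC1 at 0% and 100%. RPN12/HXK1 (chromosome VI, 253330 to 253591) was at 0% and 44.3%, under the limit, and CAT2/VPS71 was at 0% in both.

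The longest convergent gaps covered over 100% in both lists were YPR158W-B/YPR158C-D (chromosome XVI, 849981 to 850988, 1008 bp), RRP9/YPR137C-B (920 bp), YML039W/YMD8 (878 bp), DED1/GEP3 (chromosome XV, 724726 to 725563, 838 bp) and OLE1/ERV14 (chromosome VII, 400161 to 400870, 710 bp). The first 3 are flanked by genes of Ty retrotransposons, which occur in many near-identical copies, so the placement of their reads is uncertain. DED1, a DEAD-box helicase gene of translation initiation, had a peak that ran through the whole gap, to 1061 bp past its coding end in the wild-type list and 1186 bp past it in the dbp2Δ list. Its dbp2Δ summit, of 5.998-fold, stood in the gap. OLE1/ERV14, between the genes of the fatty acid desaturase and a vesicle protein, had both flanks with a peak in both lists and no summit in the gap.

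The engineered loci touched 3 of the convergent gaps. DBP2/CYB5 (chromosome XIV, 416282 to 416939, 658 bp), next to the deleted gene, was covered over 100% in the wild type and 95.6% in dbp2Δ, where DBP2 was covered over 0% and CYB5 over 100%, and the summit of 3.20-fold stood in the gap. In dbp2Δ the gap adjoins the KanMx6 marker and not DBP2, so it is no measure of the end of DBP2. RPB3/HIS6 (chromosome IX, 313862 to 314034), beside the tagged gene, was covered over 0% and 59.0%, with HIS6 covered over 0% and 57.8%. LEU2/NFS1 (chromosome III, 92419 to 92776), beside a deleted auxotrophic marker, was at 0% in both.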

How the data were processed

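The samples were 12 chromatin libraries of Saccharomyces cerevisiae, 3 immunoprecipitates and 3 inputs per strain, from cells fixed with 1% formaldehyde for 15 min, per the labels' protocols. Trimmomatic 0.36, Bowtie2 2.3.3.1, MACS2 2.1.2 and build R64 are named in the submitters' processing notes. Peak calling by the authors was in paired-end mode on pooled libraries, at a q-value limit of 0.05 and with 1 fragment kept per position, per the file headers. No deposited peak was shorter than the recorded fragment size. The deposited fold enrichment is the authors' ratio of immunoprecipitate to local background at the summit. The deposited pileup signal and −log10 q-values were not compared.

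Gene positions came from the RefSeq table of R64, with 6431 nuclear genes, 6002 of them protein-coding. It holds no strand, exons or sequence, so no sequence is shown, and strand was read from systematic names. Coverage was the percent of bases under any peak, and a gap or gene was called at 50%. Intervals were Wilson intervals for shares and binomial order statistics for medians, at 95% over gaps. They cover neither replicate nor counting error. Calculations used Python 3.11.15, pandas 2.3.3 and scipy 1.17.1 and were tested on simulated gaps. Gaps were named by rule: the highest inside summits, the largest differences in coverage and reach, the longest fully covered gaps, the gaps with both flanks covered, the engineered loci, and the gaps of each gene group with the highest peaks. In the gaps with both flanks covered all values tied at 100%, so the first 5 by name were taken. Of the gaps these rules name, 1 is not reported here. The members, lists and tests were chosen with earlier results of these data known. Alternative peak, gap and flank limits were tried.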

Additional observations from a re-analysis of the deposited data

How the results depend on the processing

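Across 200 values under 10 alternative settings, 179 stayed within 1.5 times the count or within the interval of the median, and 21 moved. Many of these values had no room to move, so the tally does not measure robustness. The settings that alter only the dbp2Δ list left every wild-type value as it was. Median coverage by flank state stood at 100% or 0% in every setting. The reach as a percent of the gap, in another unit, was counted as moved by rule. Only the differences in reach could change sign, and none did. Counts and median coverage could not be scored as reversed. With peaks of at least 2-fold enrichment (815 and 843 peaks), 336 convergent gaps were covered in the wild type and 411 in dbp2Δ, 51 and 146 held a summit, and 21 and 55 were covered with neither flank covered. With gaps of at least 200 bp, 361 and 431 were covered, 86 in dbp2Δ only, and 76 and 124 with neither flank. With a flanking gene called at 25% of its length, 83 and 129 were covered with neither flank. Divergent gaps called at 25% numbered 292 and 198, and at 80% 50 in dbp2Δ.

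As a percent of the gap, the median difference in reach was 31.5. A pair of settings chosen after seeing the data concern fragment size and list size. With dbp2Δ edges shortened, the median difference in reach was 69 bp in convergent, 39.5 bp in tandem and -41.5 bp in divergent gaps. The dbp2Δ list was also limited to 1296 peaks, of the same covered length as the wild type. Then 96 convergent gaps were covered in dbp2Δ alone and 47 in the wild type alone, which moved both by over 1.5 times. Dropping dbp2Δ peaks cannot raise the first count or lower the second. Tandem gaps had 103 and 176 at this setting, and divergent gaps 9 and 86. No paired analysis was possible because the replicates were pooled before the peaks were called, and leaving out single replicates was not possible either. Taking the strand from a column of the gene table was not run, because that table has none. Most gaps covered in dbp2Δ only lay under peaks of low fold enrichment, and how these vary between cultures is not known.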
